A study of Homo sapiens with 6 samples.

Results

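The ERBB receptors EGFR, ERBB2, ERBB3 and ERBB4 were each targeted by a library siRNA in a screen of SUM149PT, a human cell line from a triple-negative inflammatory breast tumour, run with and without eicosapentaenoic acid (EPA), an omega-3 polyunsaturated fatty acid. The 4 members were taken from the library wells by the Entrez locus ID of the target gene, with no measured value used in the choice. They are 4 of the 925 locus IDs in the library, and each had 1 well and 1 catalogue number among 939 library wells. The screen was run to find druggable targets that complement EPA.

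The EPA group comprised 3 samples of SUM149PT cells transfected with 45 nM siRNA for 48 hours and then exposed to 50 µM EPA, a dose the labels give as an IC50, for 72 hours. The untreated group comprised 3 samples of the same line and transfection without EPA; whether a vehicle was added is not given in the sources used here. Both groups carried the siRNA, so the comparison within a group is with other siRNAs, with the negative control siRNA, OTP3, and with cells that had no siRNA. All samples are of 1 cell line, and no source used here says whether replicates were separate cultures, and the p-values below therefore speak only for the spread of these 6 samples, part or all of which may be technical. The columns are called EPA replicates 4 to 6 and untreated replicates 1 to 3, as the deposited table numbers them.

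ERBB receptors are transmembrane tyrosine kinases that pair on binding EGF-type ligands or neuregulins and then signal through the RAS, RAF, MEK and ERK cascade and through PI3K, AKT and MTOR. EGFR binds EGF and its relatives. ERBB2, known as HER2, has no known ligand of its own and is a favoured dimer partner of the others, ERBB3 has little kinase activity and docks PI3K through its tail, and ERBB4 is a kinase-active neuregulin receptor. A triple-negative tumour lacks the oestrogen and progesterone receptors and amplified ERBB2. EGFR is often expressed in such tumours, and SUM149PT is known as an EGFR-expressing line.

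The readout was the fluorescence that viable cells generate by reducing resazurin, so that fewer cells and less reduction per cell cannot be told apart. Transcript and protein levels of the targets were not analysed here, and the depth of each knockdown is therefore unknown. Over all 3 plate layouts, OTP3 wells had sample medians of 18844 to 26530 units with EPA and of 48172.5 to 51045 untreated. The corresponding ranges were 3757.5 to 3975.5 with EPA and 4377 to 4859 untreated for TOX, the positive control siRNA, and 3896 to 3967 with EPA and 3770.5 to 3808 untreated for blank wells. The member wells read from 14135 to 51128, so none of them was near the blank level. Log2 values relative to the plate correlated across the 939 library wells, which are not independent replicates, with r of 0.909 to 0.943 among EPA samples and 0.902 to 0.921 among untreated samples.

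All 4 members sat on plate 1. ERBB2, ERBB3 and ERBB4 shared plate row 2, in columns 6, 8 and 10, and EGFR was in row 14, column 11. The row matters for what follows, because EPA left unequal shares of the signal over the plate. In the wells of cells alone, 70.2% ± 7.15 (SE, n = 3 samples per group) of the untreated signal was left in row 2 and 54.8% ± 4.72 in row 14. OTP3 wells of plate 1 kept 48.6% ± 7.36. The median library well of a row stood 0.50 higher with EPA than untreated in row 2 on the log2 scale relative to the plate's library median, and 0.04 higher in row 14. Over the whole library the median difference was 0.20. The control wells of a row, used below as a zero point, are its OTP3 and cells-alone wells. Library wells of plate 1 filled columns 5 to 24, so its control wells lay outside these columns, towards an edge. A comparison with them takes account of the row but not of the column, and an effect of the edge on them was not tested.

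**Figure D1:**
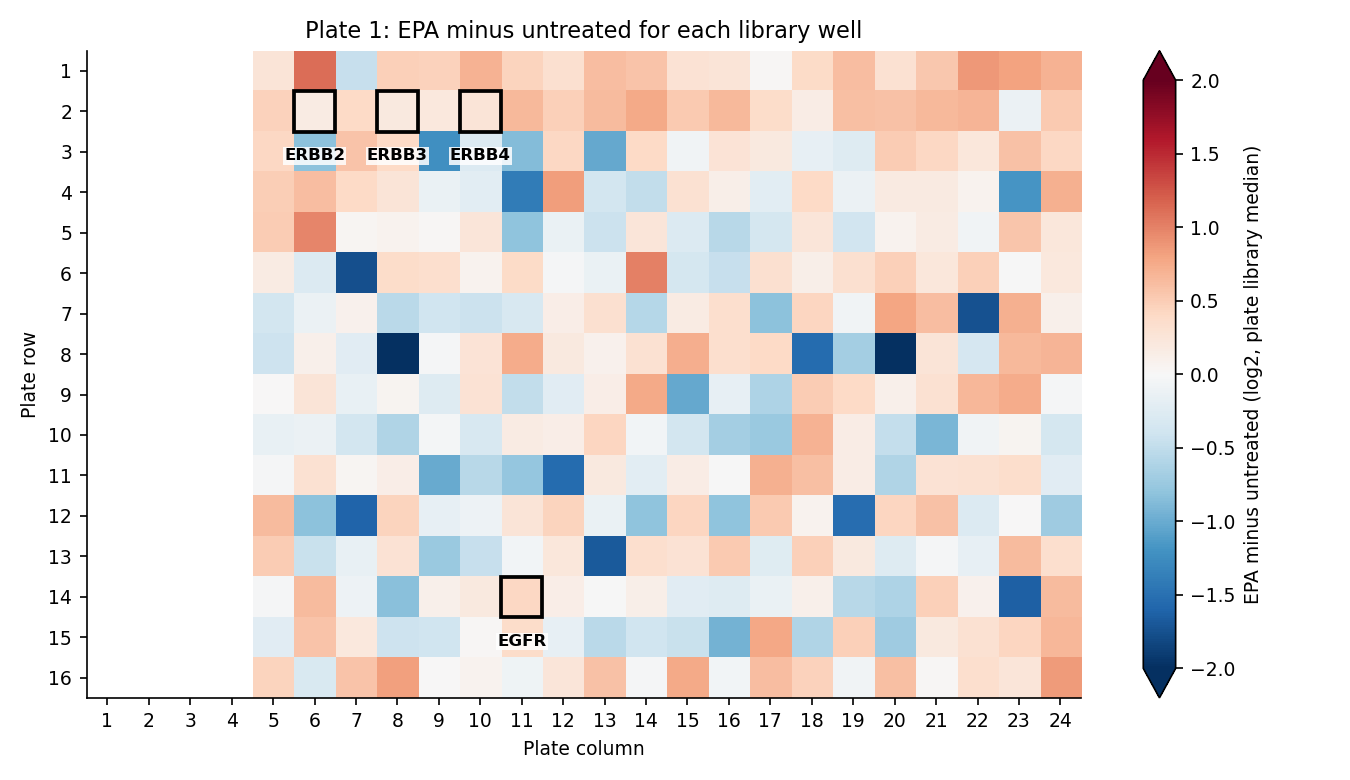
Map of plate 1 by plate row and column, coloured by EPA minus untreated (log2 of fluorescence relative to the plate's library median, mean of 3 samples per group), with the wells of the 4 members outlined; blank cells hold controls. Rows 1 and 2 are mostly red, with row medians of 0.46 and 0.50, and EGFR lies in row 14, whose median was 0.04.

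Among the 4 siRNAs, the one against ERBB2 gave the highest mean signal and the one against ERBB3 the next, with those against ERBB4 and EGFR lowest, in both groups. Against the controls of their own plate row, ERBB2 did not pass as different and ERBB3 was lower in both groups, while against OTP3 the values depended on the group. ERBB2 wells gave 43999, 27421 and 36419 units with EPA, against 51128, 49551 and 50529 untreated. All 3 EPA values lay below all 3 untreated values, and the untreated ones differed by little (CV 1.58%). The same held on plate 1 for OTP3, cells alone and the median library well, though not for the median library well of row 2. The share of library siRNAs whose raw values were so separated was not computed. In untreated samples the ERBB2 wells stood at 98.8% ± 3.32 (SD, n = 3) of the OTP3 median of the plate. ERBB2 was thereby 1.23 above the plate's library median with EPA (SE 0.0982, limma adjusted p = 1.60e-06) and 1.06 above it untreated (SE 0.0982, adjusted p = 7.13e-06), in 3 of 3 samples each, ranking 78 and 33 from the top of 939. Such calls were frequent: 36.4% of library siRNAs were called higher and 37.0% lower than the library median with EPA, and 33.9% higher and 35.6% lower untreated. Set against OTP3 in place of the library, ERBB2 was higher with EPA, at 0.54 (95% interval 0.341 to 0.737, limma adjusted p = 7.11e-05), a call that 13.5% of the library shared, and its EPA wells stood at 146% ± 11.8 of OTP3 (SD, n = 3). Untreated it was at -0.02 (95% interval -0.215 to 0.181), where 91.8% of the library was called lower. With EPA its level was 0.63 when centred on the library wells of its row and 0.33 after median polish, and it passed in both.

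ERBB3 wells gave 31361, 26384 and 24908 units with EPA, against 28864, 39224 and 50574 untreated. The groups overlapped, and the untreated spread (CV 27.5%) was the larger. Relative to the plate's library median the siRNA was at 0.87 with EPA (SE 0.133, limma adjusted p = 0.000169) and at 0.68 untreated (SE 0.133, adjusted p = 0.00116), above it in 3 of 3 samples of each group. Set against OTP3 it was lower untreated, at -0.40 (adjusted p = 0.0124), as for 91.8% of the library. With EPA it stood at 0.18 against OTP3 and did not pass (adjusted p = 0.259), where 64.7% of the library was lower and 13.5% higher.

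ERBB4 wells gave 16766, 14384 and 15729 units with EPA, against 14135, 20971 and 31242 untreated. The EPA values all fell within the untreated range, whose CV of 38.9% was the widest of the members. Relative to the library median, ERBB4 was at 0.06 with EPA (SE 0.181, limma adjusted p = 0.787) and at -0.20 untreated (SE 0.181, adjusted p = 0.345), and did not pass in either group. Without untreated replicate 3 it stood at -0.49 untreated and was called lower (adjusted p = 0.0239), and without untreated replicate 1 at 0.09 (adjusted p = 0.664). Set against OTP3 it was lower with EPA, at -0.64 (limma adjusted p = 0.00507), and untreated, at -1.28 (adjusted p = 8.27e-06), calls that 64.7% and 91.8% of the library shared.

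The untreated spread of ERBB3 and ERBB4 followed the same samples. Relative to the library median, ERBB3 was at 0.26, 0.69 and 1.08 in untreated replicates 1, 2 and 3, and ERBB4 at -0.77, -0.21 and 0.39. The median library well of plate row 2 stood at -0.16, 0.31 and 0.42 in those samples, lowest in the same replicate as both receptors. ERBB2, in the same row, did not follow, at 1.08, 1.03 and 1.08. The part of the row in the spread of ERBB3 and ERBB4 was not tested beyond the row-centred values given below.

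EGFR wells gave 20497, 17150 and 14857 units with EPA, against 22091, 20843 and 19739 untreated. The ranges overlapped through EPA replicate 4, and the other EPA values lay below every untreated value. The untreated wells stood at 41.0% ± 3.47 of OTP3 and the EPA wells at 72.2% ± 13.4 (SD, n = 3 each). Set against OTP3, EGFR was lower with EPA, at -0.485 (SE 0.147, limma adjusted p = 0.00689), as was 64.7% of the library, whose median was -0.676. Untreated, EGFR was lower at -1.29 (SE 0.147, limma adjusted p = 6.47e-07), as was 91.8% of the library, whose median was -1.13. Relative to the library median it was at 0.21 with EPA (SE 0.104, adjusted p = 0.093) and at -0.21 untreated (SE 0.104, adjusted p = 0.0988), past the threshold in neither group.

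**Figure D2:**
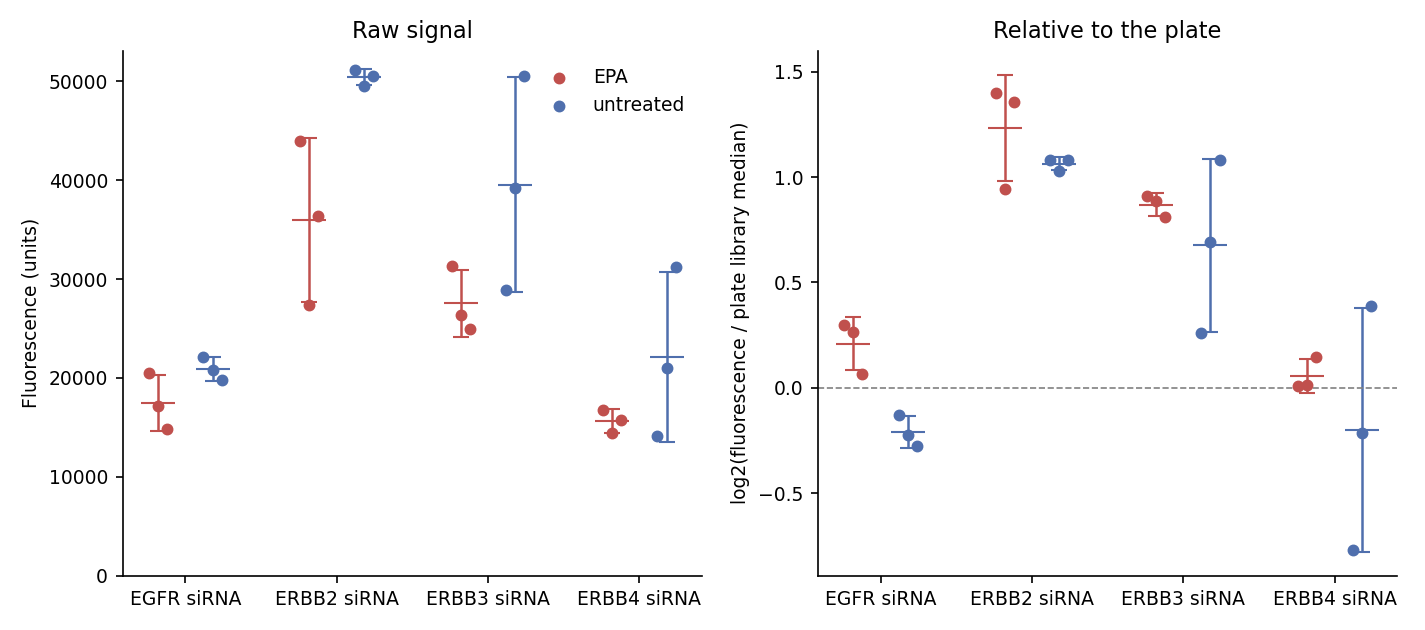
Each point is 1 sample, as raw fluorescence (left, axis from 0) and as log2 of fluorescence over the plate's library median (right, dashed line at the median), with EPA in red left of untreated in blue; bars are means ± SD, n = 3. ERBB2 and ERBB3 lie above the dashed line in every sample, and EGFR is the member whose EPA points (0.06 to 0.30) all lie above its untreated points (-0.28 to -0.13).

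In order of signal with EPA the members ran ERBB2, ERBB3, EGFR and ERBB4, and untreated they ran ERBB2, ERBB3, ERBB4 and EGFR. With EPA 5 of 6 pairs of members had log2 values that did not overlap, and EGFR and ERBB4, 0.15 apart, did overlap. Untreated, 3 of 6 pairs did not overlap, and every pair of neighbours in the order did. Because the wells of a pair shared plate and sample, the differences were also taken within each sample, where 5 of 6 pairs with EPA and 4 of 6 untreated kept 1 direction in all 3 samples. ERBB3 exceeded ERBB4 in each untreated sample, by 1.03, 0.90 and 0.69 (mean 0.88, SD 0.169), though the ranges of the 2 siRNAs overlapped. The exact sign-flip permutation test (two-sided) of 3 such differences cannot go below p = 0.25, the value for each of these pairs. ERBB2 exceeded EGFR by 1.02 with EPA and by 1.27 untreated without overlap. Each pair that did not overlap had an exact permutation p of 0.1 (two-sided), the smallest that 3 against 3 allows, and 0.15 adjusted over the 12 comparisons. The counts of pairs above were not set beside those of other library siRNAs and cannot be read as particular to the receptors. Because ERBB2, ERBB3 and ERBB4 shared a row, the order among these 3 does not depend on the row of the plate, while that against EGFR can. It can depend on the column: library medians of columns 6, 8 and 10 were 0.09, -0.04 and -0.345 with EPA. Untreated, these medians were 0.01, 0.14 and -0.29. After median polish, ERBB2, ERBB3 and ERBB4 kept their order with EPA, at 0.33, 0.24 and -0.44. EGFR did not keep its place with EPA after polish, at 0.31, above ERBB3. Untreated, polish kept the order of ERBB2, ERBB3, ERBB4 and EGFR, at 0.96, 0.31, -0.22 and -0.30. Measured against the control wells of its own plate row, EGFR was at -0.54 with EPA and -1.21 untreated, and ERBB4 at -1.24 and -1.37. ERBB3 was at -0.43 and -0.49 on that scale. These 3 passed as lower than the row's controls in both groups, with limma adjusted p up to 0.0157, as did 68.2% of the library with EPA and 94.5% untreated. ERBB2 was at -0.06 with EPA (95% interval -0.281 to 0.152) and at -0.105 untreated (-0.321 to 0.112), and passed in neither.

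The comparison of EPA with untreated samples asks whether loss of a receptor and EPA lower the signal by more together, which would appear as a lower value with EPA. None of the 4 siRNAs was called lower with EPA in limma's test, where 15.2% of the library was, and EGFR was called higher, where 29.0% of the library was. EGFR stood 0.42 higher with EPA (SE 0.148, 95% interval 0.0886 to 0.747, limma adjusted p = 0.0425), its 3 EPA values lying above its 3 untreated values, as they did for 36.0% of the library. ERBB2 was at 0.17 (95% interval -0.139 to 0.48, adjusted p = 0.339), ERBB3 at 0.19 (-0.225 to 0.611, adjusted p = 0.423) and ERBB4 at 0.26 (-0.314 to 0.825, adjusted p = 0.437). All 4 values are near or above the library's median of 0.20, and EGFR ranked 299 from the top of 939. A lowering of 1 log2 unit lies outside these 4 intervals, which hold for the plate's library median and leave out the well-to-well error described below. After median polish the interval of ERBB2 was -1.0 to -0.261, so such a lowering is not excluded for every setting. The EGFR call is near the threshold: leaving out any single sample other than EPA replicate 6 ended it, with adjusted p of 0.0433 to 0.121 over the 6 omissions, and so did setting the plate's median difference to 0, which gave 0.27 (adjusted p = 0.174) and called 14% of the library higher.

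The share of raw signal left with EPA was 83.8% ± 8.30 (SE) for EGFR, 71.3% ± 9.53 for ERBB2, 69.7% ± 12.1 for ERBB3 and 70.7% ± 16.2 for ERBB4. The order rests on single samples: without untreated replicate 3, ERBB4 kept 89.0% and EGFR 81.5%. In row 2, cells without siRNA kept 70.2% ± 7.15, well inside the error of the 3 receptors there. The median library well of row 2 kept more than these 3, at 81.8% ± 10.3, and that gap was not tested. In row 14, EGFR kept 83.8% where cells without siRNA kept 54.8% ± 4.72 and the median library well 59.0% ± 6.55. After subtraction of the blank wells the shares were 79.7%, 68.8%, 66.2% and 64.1% for EGFR, ERBB2, ERBB3 and ERBB4.

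**Figure D3:**
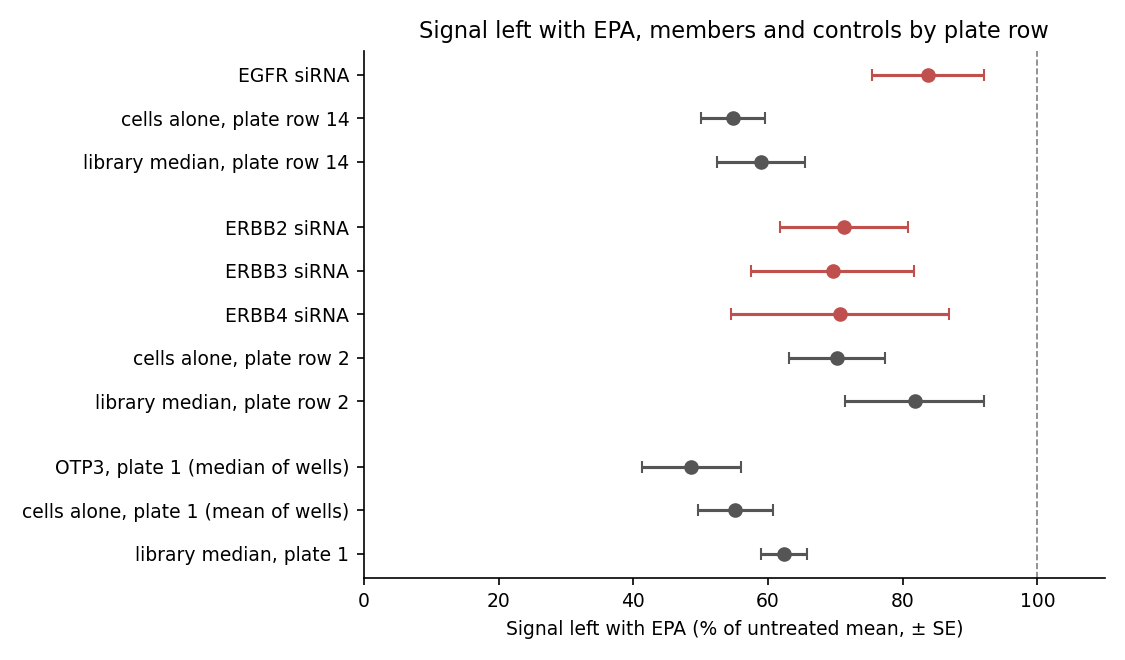
Signal left with EPA as a percentage of the untreated mean (± SE, n = 3 samples per group) for the 4 receptor siRNAs in red and for control and library wells in grey, grouped by plate row; the dashed line is 100%. ERBB2, ERBB3 and ERBB4 lie beside the cells alone of their row (70.2%) and left of its median library well (81.8%). EGFR (83.8%) lies to the right of the cells alone of its row (54.8%).

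Taking the plate position into account kept EGFR higher with EPA and none of the others. Control wells of the same row lay in other columns. Against them EGFR stood at 0.67 (limma adjusted p = 0.00816), a call that 53.0% of the library shared. Centring on the plate's OTP3 wells, which takes no account of position, gave 0.80 for EGFR (limma adjusted p = 0.00376). There 58.1% of the library was called higher, and ERBB2, ERBB3 and ERBB4 were too, at 0.56, 0.58 and 0.64. Against the library wells of the same row EGFR stood at 0.51 (adjusted p = 0.0211), a call given to 19.9% of the library. Against the neighbouring library wells within 2 rows and 2 columns it was 0.57 (adjusted p = 0.0209, 25.1% called higher), and after median polish of rows and columns 0.61 (adjusted p = 0.00572, 16.3% called higher).

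The values of the other 3 depended more on position. Against control wells of row 2, ERBB2 was at 0.04, ERBB3 at 0.06 and ERBB4 at 0.13, with adjusted p of 0.691 and above. Against the library wells of row 2 they were at -0.24, -0.22 and -0.16, with adjusted p of 0.251 and above. After median polish ERBB2 was called lower with EPA, at -0.63 (adjusted p = 0.0126), where 14.2% of the library was, while ERBB3 was at -0.06 (adjusted p = 0.803) and ERBB4 at -0.23 (adjusted p = 0.399). The lower call for ERBB2 did not appear with any other single position correction listed here, and its cause was not tested. It was made again when blank subtraction preceded the polish, at -0.79 (limma adjusted p = 0.0175). Among the 20 library wells of row 2, ERBB2, ERBB3 and ERBB4 ranked 18, 17 and 15 from the highest in EPA minus untreated.

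**Figure D4:**
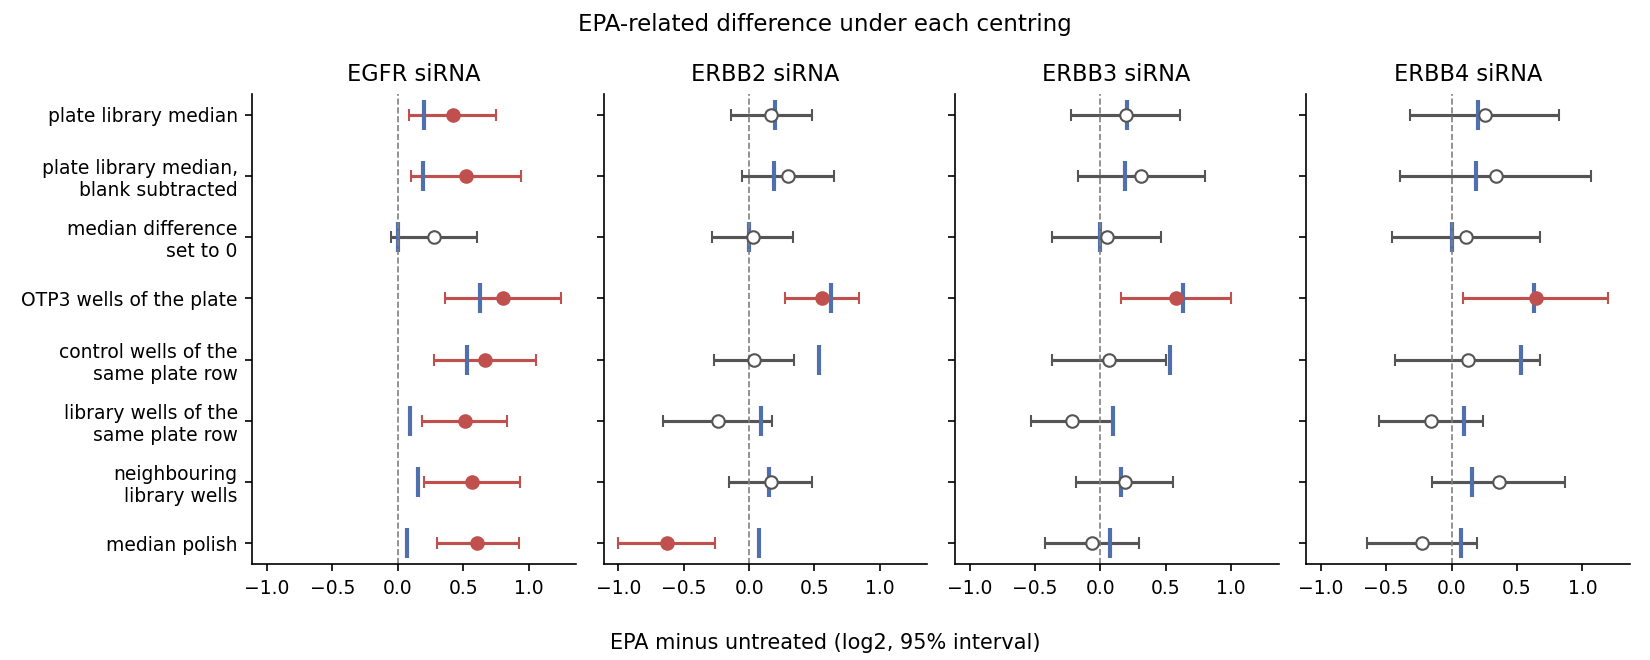
EPA minus untreated (log2, horizontal axis) for each receptor siRNA under 8 ways of setting the zero point; points are fitted differences with 95% intervals, filled red where the limma adjusted p was under 0.05, and blue ticks are the median of all library siRNAs. EGFR lies right of 0 in every line, and ERBB2 changes side, from 0.56 with OTP3 centring to -0.63 after median polish.

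Whether EGFR differed from the other receptors in its response to EPA was tested over the 6 pairs of members. The EPA-related difference of EGFR exceeded that of ERBB2 by 0.25, that of ERBB3 by 0.23 and that of ERBB4 by 0.16, with samples overlapping in all 6 pairs and exact permutation p (two-sided) of 0.3, 0.6 and 0.8 (1.0 each when adjusted over the 6). A permutation of 3 against 3 samples cannot go below p = 0.1, so no pair could have passed at 0.05. The test therefore cannot decide whether EGFR differed from the other 3 in the response to EPA. It also used the plate's library median, although EGFR lay in another plate row than the other 3. Centred on the library wells of the same row, EGFR stood at 0.51 (95% interval 0.182 to 0.838). ERBB2, ERBB3 and ERBB4 stood at -0.24, -0.22 and -0.16 and did not pass. The pairs were not tested on that scale, which was added after the values were seen. The screen also held 13 siRNAs that were present on 2 wells under the same catalogue number, which shows how far 1 reagent varied between wells. Their EPA minus untreated values differed between wells by a median of 0.37 (range 0.0262 to 0.711), close to the 0.42 of EGFR, and their levels by a median of 0.64 with EPA and 0.56 untreated. Each receptor had 1 well in each sample, so this well-to-well part of the error does not enter the standard errors given above.

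The siRNAs nearest to each receptor over the 6 log2 values, by Euclidean distance, came from several gene families. Nearest to EGFR were ADRA2C, an adrenergic receptor (distance 0.268), PRKD3, a protein kinase D listed as PRKCN (0.288), and PIM1, a serine/threonine kinase (0.291). Near ERBB2 were EPHB4, an Eph receptor (0.299), and CRY1, a clock protein (0.304). ERBB3 was nearest to TESK2 (0.337), FZD7 (0.384) and BRD2 (0.45), and ERBB4, whose samples varied most, to FZD2 (0.57), BLNK (0.652) and PTK2B (0.677). No receptor was among the 3 nearest of another receptor.

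Of the genes that act with or below ERBB receptors, 49 of 82 listed were measured, in 50 wells. Between EPA and untreated samples 8 were called lower (16%) and 16 higher (32.0%), with a list median of 0.07, beside 15.2% lower, 29.0% higher and a median of 0.20 over the library. Of the ligands only NRG3, a neuregulin that binds ERBB4, was in the library, at -0.10 (adjusted p = 0.636), and it was called higher after median polish, at 0.51 (adjusted p = 0.0465). Both measured adaptors were called higher: CRKL, which sat in row 2 beside the 3 receptors, at 0.52 and SHC1 at 0.71 (adjusted p = 0.0086 and 0.0118). Neither passed after median polish (0.12 and 0.33). SHC1 wells read low in both groups, at 7421 ± 946 with EPA and 7991 ± 1315 untreated (SD, n = 3). Sample medians of blank wells were 3896 to 3967 with EPA and 3770.5 to 3808 untreated. The part of this low signal in the SHC1 difference was not tested.

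Over the library, 15.2% of siRNAs were called lower and 29.0% higher, and none of the lists below was tested against these shares. Nearest to the receptors, the cytoplasmic tyrosine kinases had 3 of 7 lower and 1 higher. They included PTK6 at -1.35 and SRC at -1.0, kinases that ERBB receptors recruit, and ABL2 at -0.81, and the 3 passed after median polish too. PTK6 wells read 7687 ± 474 with EPA, against 32711 ± 2091 untreated (SD, n = 3), and SRC wells 7641 ± 127 with EPA, against 26910 ± 2841 untreated. The PI3K, AKT and MTOR branch had 2 of 15 wells lower and 6 higher, with MTOR at -1.54 and GSK3B, a kinase that AKT inhibits, at -0.71 (adjusted p = 0.00362), and the PI3K catalytic subunit PIK3CG at 1.05.

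In the RAF, MEK and ERK branch 1 of 7 was lower and 3 were higher, beside 15.2% lower and 29.0% higher over the library. MAP2K1, which encodes MEK1, was at -0.70 (limma adjusted p = 0.0128), and it did not pass after median polish (-0.41, adjusted p = 0.0507). MAP2K1 wells read 6146 ± 15.6 with EPA, against 16888 ± 3325 untreated (SD, n = 3). The PAK and JNK branch had 2 of 11 lower and 3 higher, with MAP2K7 at 0.84, MAPK10 at 0.63 and PAK3 at -0.93. The PKC and CAMK2 branch had 0 of 7 lower and 1 higher, PRKCA at 0.48 (adjusted p = 0.0278).

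The other receptor tyrosine kinases were the parts of the library most like the ERBB receptors. Of the 53 measured, 7 were lower (13.2%) and 17 higher (32.1%) with EPA, with a median of 0.26 and a range of -2.01 to 1.12, beside 0 lower and 1 higher of the 4 ERBB receptors. FLT1, a VEGF receptor, was the lowest at -2.01, and EPHA2, in row 14 like EGFR, was at -1.63, with wells at 8966 ± 640 with EPA and 44694 ± 2207 untreated. The ERBB values, from 0.17 to 0.42, lay inside the range of these receptors.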

How the data were processed

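The authors deposited raw fluorescence intensity, 1 value for each well in each sample, as the table's headers state; whether anything was subtracted or normalized before deposit is not given in the sources used here. Per the labels' protocols, cells (750 per condition) were added to siRNA complexes formed over 30 minutes, and fluorescence was read on a plate reader. The table held 1152 wells on 3 layouts of 16 rows and 24 columns, with 16 blank, 24 cells-alone, 16 OTP3 and 8 TOX wells per plate; 21 wells marked as without siRNA were not used. Column headings gave the group but not the numbered sample. Current gene symbols came from RefSeq (GRCh38.p14) through the locus ID, matching 933 of 939 library wells. Reagent sequences were not used here, nor does any source used here say whether a catalogue number is 1 siRNA or a pool.

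Each intensity was expressed as log2 of its ratio to the library median of the same plate in the same sample; neither a pseudocount nor a filter was used. limma 3.58.1 (R 4.3.3; trend and robust) fitted group means over all 939 library wells and tested EPA, untreated and EPA minus untreated, two-sided, with Benjamini-Hochberg adjustment at 0.05. The fit was tested on simulated data with the sample spread of the real wells. It recovered 88% of differences of 1 log2 unit and 58% of differences of 0.5, and 3.31% of its 151 calls were unchanged wells. The simulated noise was independent between wells, without row or column shifts between groups or error between wells of the same reagent. These rates therefore need not hold for the screen. Single quantities were compared by exact permutation over samples (scipy 1.17.1). Having 3 samples per group and 1 well per receptor limits the precision. The 4 receptors, 3 genes per list with the largest moderated statistic and 3 nearest siRNAs per receptor were named by rule. Some genes that the rule names are not reported here. Members and lists were chosen with earlier results of these data known. The tests between pairs of members in their response to EPA and within samples, the comparison of siRNAs on 2 wells and centring on the library wells of the same row were added after the values were seen.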

Additional observations from a re-analysis of the deposited data

Results flagged for a closer look

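The level of the EGFR siRNA relative to the plate's library median differed between the groups by the test of the difference itself: 0.21 with EPA and -0.21 untreated, a difference of 0.42 (limma adjusted p = 0.0425), with 3 of 3 EPA samples above all untreated samples. The same call was made for 29.0% of the library. The difference was as large or larger, 0.51 to 0.67, against the library or control wells of its own plate row, the neighbouring wells and after median polish. Wells of the same reagent differed by a median of 0.37 in this difference, and the part of such variation in the EGFR value was not tested.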

How the results depend on the processing

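No paired analysis was possible because the columns are numbered through both groups and cannot be tied to the numbered samples of the labels, so the replicate block was not run. Values are log2 unless said, with the cause of each change not tested. For EPA minus untreated, EGFR kept its direction in every alternative run, and its value of 0.42 did not pass at an adjusted p of 0.01, nor did 0.27 with the median difference set to 0. ERBB2 was below 0 with centring on the library wells of its row (-0.24, an alternative chosen after seeing the data), median polish (-0.63), blank subtraction with median polish (-0.79), quantile normalization (-0.26) and the robust z-score (-0.17 z units). ERBB2 passed as lower with median polish (limma adjusted p = 0.0126) and with blank subtraction and median polish (adjusted p = 0.0175). ERBB3 was below 0 at -0.22 with row centring, -0.0646 with polish, -0.11 with both corrections and -0.0219 with quantile normalization, and ERBB4 at -0.16, -0.23 and -0.13 with the first 3 of these. With OTP3 centring ERBB2, ERBB3 and ERBB4 passed as higher (0.56, 0.58 and 0.64). Leaving out 1 sample at a time gave 0.37 to 0.49 for EGFR. It passed only without EPA replicate 6 (limma adjusted p = 0.0433), with adjusted p of 0.0619 to 0.121 for the other omissions. The same omissions gave 0.0868 (without EPA replicate 4) to 0.32 (without EPA replicate 5, adjusted p = 0.062) for ERBB2. They gave -0.0161 to 0.40 for ERBB3 and -0.0309 to 0.55 for ERBB4, the lowest of ERBB3 and ERBB4 without untreated replicate 1.

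The levels depended on the zero point. With EPA, OTP3 centring gave -0.485 for EGFR, 0.54 for ERBB2, 0.18 for ERBB3 and -0.64 for ERBB4, and control wells of the row gave -0.54 for EGFR, -0.0648 for ERBB2, -0.43 for ERBB3 and -1.24 for ERBB4. Row library wells gave -0.0029 for EGFR, 0.63 for ERBB2 and -0.55 for ERBB4. EGFR passed as higher at a threshold of 0.1 (0.21), with polish (0.31), with both corrections (0.45) and with quantile normalization (0.32), and without edge wells at 0.39. Polish gave 0.33 for ERBB2, 0.24 for ERBB3 and -0.44 for ERBB4, and both corrections gave 0.26 for ERBB2, 0.24 for ERBB3 and -0.41 for ERBB4. Untreated, OTP3 centring gave -1.29, -0.0173, -0.40 and -1.28 for EGFR, ERBB2, ERBB3 and ERBB4, and row controls -1.21, -0.105, -0.49 and -1.37. EGFR passed as lower at a threshold of 0.1 (-0.21), with row library wells (-0.51), neighbours (-0.49) and polish (-0.30). ERBB4 was at -0.39 with row library wells and at -0.49 to 0.0867 with 1 sample left out, and ERBB3 at 0.35 with both corrections.

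For library counts, EPA minus untreated gave 272 higher and 143 lower, against 546 and 59 with OTP3 centring and 498 and 65 with row controls. The count higher was 135 at a threshold of 0.01, 131 with the median difference set to 0, 153 with polish, 126 with both corrections and 158 with quantile normalization. With EPA, OTP3 centring gave 127 higher and 608 lower and row controls 64 and 640. Untreated, OTP3 centring gave 5 higher and 862 lower, row controls 2 and 887, and both corrections 207 and 214. Of the pooled ERBB signalling wells, OTP3 centring called 25 higher and 3 lower, and the median difference set to 0 called 7 higher. With 1 sample left out, the share of signal left was 76.6% to 90.1% for EGFR, 63.3% to 79.8% for ERBB2, 61.4% to 80.9% for ERBB3 and 59.9% to 89.0% for ERBB4, and the highest of ERBB4, without untreated replicate 3, was further from its 70.7% than its SE of 16.2.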
